A study of Rattus norvegicus with 12 samples.

Results

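The 7 islet G-protein-coupled receptors described here are Oxtr, Ffar1, Glp1r, Gipr, Gcgr, Adra2a and Sstr3, found by their symbols among the 34034 gene symbols of the count table. All 7 genes passed the filter on low counts that kept 14324 genes. RNA was sequenced in INS-1E cells, an insulin-secreting rat insulinoma line used as a model of the β-cell, in 4 groups of 3 libraries. One group was left untreated. IL-1βlow cells were held for 72 h at 10 pg/ml of the cytokine interleukin-1β (IL-1β), CYT cells were challenged for 16 h with the stronger mixture of 100 pg/ml IL-1β and 5 ng/ml interferon-γ (IFN-γ), and IL-1βlow + CYT cells received the weak exposure, a change of medium and then the challenge. All groups are the wild-type line with no added transgene named in the labels, and the comparisons ask how the challenge moved receptor transcripts and whether the weak exposure beforehand altered that response.

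G-protein-coupled receptors carry hormone, nutrient and nerve signals across the membrane of the islet cell. Receptors that couple to Gs raise cyclic AMP (cAMP) and amplify glucose-stimulated insulin secretion, those that couple to Gq act through phospholipase C and calcium, and those that couple to Gi/o lower cAMP and restrain secretion. Oxtr, the oxytocin receptor, and Ffar1, the receptor for long-chain fatty acids, act mainly through Gq. Glp1r and Gipr, the incretin hormone receptors, and Gcgr, the glucagon receptor, act mainly through Gs. Adra2a, an α2-adrenergic receptor that mediates the inhibition of secretion by adrenaline, and Sstr3, a somatostatin receptor, act through Gi/o.

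Oxtr was chosen by its large fall with CYT, and so every comparison of Oxtr that uses untreated or CYT libraries is a description without a test. It was tested only in IL-1βlow + CYT against IL-1βlow, which compares libraries that choice did not use. The spread in that test was estimated from all 12 libraries, so it also draws on the untreated and CYT libraries. A gene was called at an adjusted p under 0.01 (edgeR's quasi-likelihood test, Benjamini-Hochberg adjustment over all 14324 genes) and a log2 fold change past 0.6 in either direction for IL-1βlow against untreated cells, or past 1 elsewhere. Levels are library-size-scaled counts (CPM) after TMM, which adjusts for differences in RNA composition. Gene lengths were not used, so levels are compared within a gene and never between genes. Where groups are said not to overlap, that describes their libraries and is no test. The share of all genes whose groups lie apart was not counted, so lying apart does not set a receptor apart from other genes.

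The sequences upstream of an annotated start are shown for the 4 receptors that moved furthest with CYT, to set out what lies before such a start in genes that fell (Oxtr, Adra2a) and rose (Sstr3, Gcgr). Each is the 250 bases before a start site in the RefSeq annotation of GRCr8, written 5′ to 3′ on the gene's strand. GRCr8 is not the build of the counts (mRatBN7.2). The windows lie at chr4:147170500-147170749 on the minus strand for Oxtr, chr1:263066530-263066779 on the plus strand for Adra2a, chr7:111980251-111980500 on the minus strand for Sstr3 and chr10:106306553-106306802 on the plus strand for Gcgr. Capitals mark a match to TGACG, the short form of the cAMP response element (CRE), on either strand.
Oxtr: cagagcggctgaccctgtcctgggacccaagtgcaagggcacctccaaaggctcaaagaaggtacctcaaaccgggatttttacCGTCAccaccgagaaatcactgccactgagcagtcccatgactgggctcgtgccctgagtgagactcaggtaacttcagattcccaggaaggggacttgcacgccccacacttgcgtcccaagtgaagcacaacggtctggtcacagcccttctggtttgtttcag
Adra2a: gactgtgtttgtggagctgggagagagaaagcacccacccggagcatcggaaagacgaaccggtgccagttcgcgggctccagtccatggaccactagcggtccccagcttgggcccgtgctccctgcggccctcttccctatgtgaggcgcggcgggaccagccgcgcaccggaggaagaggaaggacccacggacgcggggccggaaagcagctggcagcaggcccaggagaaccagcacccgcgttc
Sstr3: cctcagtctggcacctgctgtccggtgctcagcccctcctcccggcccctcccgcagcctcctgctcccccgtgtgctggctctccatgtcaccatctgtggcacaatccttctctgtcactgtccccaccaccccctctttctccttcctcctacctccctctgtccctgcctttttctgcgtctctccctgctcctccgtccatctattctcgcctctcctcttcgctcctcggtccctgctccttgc
Gcgr: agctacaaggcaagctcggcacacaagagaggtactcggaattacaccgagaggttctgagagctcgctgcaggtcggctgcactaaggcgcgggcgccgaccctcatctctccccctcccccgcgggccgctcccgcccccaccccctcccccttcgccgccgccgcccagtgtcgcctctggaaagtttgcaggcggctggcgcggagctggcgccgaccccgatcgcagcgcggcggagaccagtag

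The Oxtr window precedes a site 1224 bases inside the outer end of the annotated gene, and its match lies on the reverse strand at -166 to -162 from that site. The window thus lies within the annotated gene, and the bases before the outer end of Oxtr were not examined. G and C made up 56.4% of the Oxtr window, 67.6% of that of Adra2a, 63.2% of that of Sstr3 and 70.0% of that of Gcgr. Windows were matched for 6 of the 7 receptors, 7 windows in all, because Gcgr has a further annotated start. TGACG was found in 2 of these 7 windows, those of Oxtr and Ffar1, and in 18.2% of all 33469 windows of the same length. Both strands were also searched for the κB site of NF-κB, the GAS element TTCNNNGAA, the core of the interferon-stimulated response element (GAAA and GAAA with 2 bases between), the C/EBP motif TTGCNNAA, the AP-1 motif TGANTCA and the full CRE TGACGTCA, which holds TGACG. These were in 6.33%, 7.67%, 3.41%, 9.22%, 6.34% and 1.59% of all windows and in 0 of the 7 receptor windows. That says only that these letters are not in these windows.

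Total counts ran from 15812640 to 20246806 per library. All 9 β-cell markers examined, among them Ins1, Ins2, Iapp and Pdx1, passed the filter, with a summed level of 33180 to 39540 CPM in untreated, 29010 to 33990 in IL-1βlow, 10770 to 11060 in CYT and 15740 to 20300 in IL-1βlow + CYT libraries, and 6 of the 9 fell with CYT. The α-cell markers, with Gcg detected and Irx2 at 0, summed to 197 to 385.5 CPM in untreated and 29.9 to 69.7 CPM in CYT libraries. The markers of δ cells reached at most 0.122 CPM in any library, those of PP cells 0.247, of acinar and duct cells 6.38, of immune cells 1.28 and of endothelial cells and fibroblasts 1.14. Hhex, Cpa1, Prss1, Ptprc and Itgam were at 0 in all libraries. Most of the sum came from Ins1 and Ins2, with untreated means of 23994 and 8097 CPM, and Iapp, Slc2a2 and Neurod1 were not called with CYT. Oxtr, Ffar1, Glp1r, Gipr and Adra2a below fell with CYT like the called markers, while Gcgr and Sstr3 rose. The part of the marker changes in the receptor results was not tested. In bulk RNA, fewer cells of a type and less RNA per cell cannot be told apart.

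Oxtr, a Gq-coupled receptor, was nearly lost after CYT. The untreated libraries held 49.9, 61.4 and 47.2 CPM, or 777 to 1038 counts. CYT libraries held 0.761, 0.874 and 0.613 CPM, which rest on 12 to 15 counts each. The CYT mean was 0.749 ± 0.131 CPM (SD, n = 3) beside 52.9 ± 7.55 CPM (SD, n = 3) without treatment, or 1.42% of it, a log2 fold change of -6.14 (SE 0.22) that was the 4th largest fall of 14324 genes.

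The weak exposure alone already lay between these extremes. IL-1βlow libraries held 21.2, 23.9 and 29.7 CPM of Oxtr, all below the untreated libraries, and their mean was 47.2% of the untreated mean, with a log2 fold change of -1.09 (SE 0.15). IL-1βlow + CYT libraries held 5.17, 3.83 and 3.57 CPM, each above all CYT libraries and below all IL-1βlow libraries. Their mean of 4.19 ± 0.859 CPM (SD, n = 3) was 5.59-fold that of CYT cells and 7.92% of the untreated mean. None of the neighbouring groups in the order CYT, IL-1βlow + CYT, IL-1βlow and untreated overlapped for Oxtr.

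In the comparison that its choice did not use, Oxtr fell from IL-1βlow to IL-1βlow + CYT with a log2 fold change of -2.57 (SE 0.18, 95% interval -2.95 to -2.20, edgeR adjusted p = 9.81e-08), the 9th largest fall. The challenge thus lowered Oxtr 5.95-fold in preconditioned cells. Oxtr kept its call in a fit of the 2 groups alone, which leaves out the untreated and CYT libraries. Without preconditioning the description is a 70.3-fold lower level. The difference between these responses was 3.56 on the log2 scale (SE 0.29), given with no test because it uses the values that chose Oxtr.

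Ffar1, the fatty acid receptor, fell with CYT and stood well above that level in preconditioned cells. Untreated libraries held 44.7, 34.0 and 43.7 CPM, IL-1βlow libraries 60.1, 46.7 and 51.6 CPM, CYT libraries 11.5, 5.48 and 7.31 CPM, and IL-1βlow + CYT libraries 33.8, 25.9 and 25.5 CPM. No groups overlapped, although the highest IL-1βlow + CYT library (33.8 CPM) and the lowest untreated one (34.0 CPM) nearly met. The CYT mean was 8.08 ± 3.07 CPM (SD, n = 3), 19.8% of the untreated mean of 40.8 ± 5.92 CPM (SD, n = 3), with a log2 fold change of -2.33 (SE 0.22, edgeR adjusted p = 4.47e-07).

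The IL-1βlow + CYT mean of Ffar1, 28.4 ± 4.68 CPM (SD, n = 3), was 69.6% of the untreated mean and was higher than in CYT cells, with a log2 fold change of 1.81 (SE 0.22, edgeR adjusted p = 1.1e-05). Against untreated cells the log2 fold change of Ffar1 in IL-1βlow + CYT was -0.52 (SE 0.20), which missed the threshold (edgeR adjusted p = 0.076). The CYT response of Ffar1 differed with preconditioning by 1.43 on the log2 scale (SE 0.29, edgeR adjusted p = 0.00168 for the interaction). Against IL-1βlow the log2 fold change was -0.90 (SE 0.20, edgeR adjusted p = 0.00639), under the minimum of 1, and -1.05, called, without IL-1βlow + CYT replicate 1. IL-1βlow alone gave 0.37 (SE 0.20), short of the threshold (edgeR adjusted p = 0.404).

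Glp1r, the receptor for glucagon-like peptide 1, had the smallest log2 fold change of the receptors that fell with CYT, and its level in preconditioned challenged cells overlapped that of CYT cells. Untreated libraries held 104.6, 102.5 and 106.4 CPM, IL-1βlow libraries 76.6, 76.8 and 68.8 CPM, CYT libraries 62.7, 48.0 and 43.2 CPM, and IL-1βlow + CYT libraries 42.6, 42.2 and 47.2 CPM. The CYT and IL-1βlow + CYT libraries overlapped, and the other groups did not. The CYT mean of 51.3 ± 10.2 CPM (SD, n = 3) was 49.1% of the untreated mean, with a log2 fold change of -1.03 (SE 0.12, edgeR adjusted p = 3.14e-06).

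That fall of Glp1r sits at the fold change minimum: it was -0.981 on the log2 scale without CYT replicate 2 and -0.885 without CYT replicate 3, and the test against the minimum itself (glmTreat) gave an adjusted p = 0.846. In IL-1βlow + CYT cells the mean of 44.0 ± 2.79 CPM (SD, n = 3) was 42.1% of the untreated mean, with a log2 fold change of -1.25 (SE 0.12, edgeR adjusted p = 1.68e-06). Against CYT the log2 fold change of Glp1r was -0.22 (95% interval -0.47 to 0.027, edgeR adjusted p = 0.126), and against IL-1βlow it was -0.75 (SE 0.12, edgeR adjusted p = 3.69e-04), under the fold change minimum. IL-1βlow alone gave -0.50 (SE 0.11, edgeR adjusted p = 0.0494), which was not called. The interaction of Glp1r, 0.27 (SE 0.16), missed the threshold (edgeR adjusted p = 0.203).

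Gipr, the receptor for glucose-dependent insulinotropic polypeptide, fell with CYT and had means of 76.3 ± 11.9 CPM in untreated and 76.7 ± 17.6 CPM in IL-1βlow cells (SD, n = 3). The latter differ by 0.0078 on the log2 scale (95% interval -0.34 to 0.35, edgeR adjusted p = 0.988). Untreated libraries held 68.0, 70.9 and 90.0 CPM, IL-1βlow libraries 64.6, 68.6 and 97.0 CPM, CYT libraries 22.7, 22.4 and 24.8 CPM, and IL-1βlow + CYT libraries 35.7, 35.5 and 49.2 CPM. Untreated and IL-1βlow libraries overlapped, while CYT libraries lay below all others. The CYT mean of 23.3 ± 1.32 CPM (SD, n = 3) was 30.5% of the untreated mean, with a log2 fold change of -1.71 (SE 0.17, edgeR adjusted p = 8.83e-07).

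In IL-1βlow + CYT cells Gipr stood at 52.6% of the untreated mean, 1.72-fold the CYT mean. This log2 fold change against CYT, 0.78 (SE 0.17, edgeR adjusted p = 0.00156), stayed under the minimum of 1, as did those against IL-1βlow (-0.94, SE 0.16, edgeR adjusted p = 0.00113) and untreated cells (-0.93, SE 0.16, edgeR adjusted p = 7.78e-04). The fall from IL-1βlow was called at -1.02 to -1.11 without IL-1βlow replicate 1, IL-1βlow replicate 2 or IL-1βlow + CYT replicate 3, and that from untreated cells at -1.03 without untreated replicate 1 and -1.10 without IL-1βlow + CYT replicate 3. Gipr overlaps Eml2, a microtubule-associated protein gene, in the GRCr8 annotation, and the strand setting of the counting is not given in the sources used here. Eml2 moved the opposite way, from 181 to 215 counts in untreated to 998 to 1085 counts in CYT libraries. It had 225 to 365 counts in IL-1βlow and 479 to 687 counts in IL-1βlow + CYT libraries. Whether shared reads alter the Gipr values was not tested.

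Gcgr, the glucagon receptor, rose with CYT while the incretin receptors Glp1r and Gipr, which belong to the same receptor class, fell. Untreated libraries held 7.39, 11.4 and 7.48 CPM, IL-1βlow libraries 11.5, 17.1 and 12.4 CPM, CYT libraries 50.6, 70.2 and 51.5 CPM, and IL-1βlow + CYT libraries 23.4, 36.3 and 25.1 CPM. The groups did not overlap, with untreated lowest and CYT highest, although the lowest IL-1βlow library was barely above the highest untreated one. The CYT mean of 57.4 ± 11.1 CPM (SD, n = 3) was 6.55-fold the untreated mean of 8.76 ± 2.30 CPM (SD, n = 3), with a log2 fold change of 2.71 (SE 0.23, edgeR adjusted p = 1.38e-07).

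The IL-1βlow + CYT mean of Gcgr, 28.2 ± 6.98 CPM (SD, n = 3), was 3.22-fold the untreated mean and lower than in CYT cells, with a log2 fold change of -1.02 (SE 0.21, edgeR adjusted p = 9.36e-04). That call ended, with the value under the fold change minimum, at -0.93 without IL-1βlow + CYT replicate 1, -0.94 without IL-1βlow + CYT replicate 3 and -0.85 without CYT replicate 2. Against IL-1βlow, Gcgr rose with a log2 fold change of 1.06 (SE 0.22, edgeR adjusted p = 0.00357), a call that ended when IL-1βlow replicate 1 (0.93, edgeR adjusted p = 0.0279), IL-1βlow replicate 3 (0.99, edgeR adjusted p = 0.0178) or IL-1βlow + CYT replicate 2 (0.83, edgeR adjusted p = 0.0219) was left out. IL-1βlow alone gave 0.64 (SE 0.23), short of the threshold (edgeR adjusted p = 0.238), and Gcgr was called there with no filter on low counts (0.66, edgeR adjusted p = 0.00144) and with the replicate block (0.64, edgeR adjusted p = 0.00133). The CYT response of Gcgr differed with preconditioning by -1.66 on the log2 scale (SE 0.31, edgeR adjusted p = 9.17e-04 for the interaction).

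Gcgr overlaps the long non-coding RNA gene LOC103693493 in the GRCr8 annotation. That gene had 22 to 41 counts in untreated and 35 to 42 counts in CYT libraries, beside 123 to 193 and 931 to 1204 counts of Gcgr. It was higher in the preconditioned groups, with 50 to 67 counts in IL-1βlow and 91 to 126 counts in IL-1βlow + CYT libraries. Gcgr had 201 to 278 and 385 to 729 counts there. The part of shared reads in the Gcgr values was not tested.

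Adra2a, the α2A-adrenergic receptor, had the largest fall with CYT among the receptors other than Oxtr. Untreated libraries held 98.4, 104.3 and 107.3 CPM, IL-1βlow libraries 77.4, 79.2 and 84.8 CPM, CYT libraries 11.3, 9.44 and 5.32 CPM, and IL-1βlow + CYT libraries 49.4, 41.1 and 30.5 CPM. The 4 groups did not overlap, and CYT libraries differed among themselves by more, as a share of their mean, than untreated libraries did. The CYT mean of 8.69 ± 3.06 CPM (SD, n = 3) was 8.41% of the untreated mean of 103.3 ± 4.54 CPM (SD, n = 3), with a log2 fold change of -3.58 (SE 0.22, edgeR adjusted p = 5e-09).

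With preconditioning, Adra2a stood at 40.3 ± 9.49 CPM (SD, n = 3), 4.64-fold the CYT mean and 39.0% of the untreated mean. The log2 fold change of Adra2a was 2.22 (SE 0.21, edgeR adjusted p = 1.47e-06) against CYT and -1.36 (SE 0.19, edgeR adjusted p = 9.83e-05) against untreated cells. The fall of Adra2a from IL-1βlow to IL-1βlow + CYT, -0.996 on the log2 scale (SE 0.19, edgeR adjusted p = 0.0021), was just under the minimum of 1. With the replicate block it was -1.02 (edgeR adjusted p = 2.6e-04) and was called, as it was at -1.01 to -1.18 without replicate 1 or replicate 2 of untreated, IL-1βlow or IL-1βlow + CYT cells. The CYT response of Adra2a differed with preconditioning by 2.58 on the log2 scale (SE 0.28, edgeR adjusted p = 1.66e-05 for the interaction), and IL-1βlow alone gave -0.36 (SE 0.19, edgeR adjusted p = 0.399).

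Sstr3, the somatostatin receptor of primary cilia, rose with CYT and was far lower than that when the challenge followed preconditioning. Untreated libraries held 27.7, 25.3 and 32.8 CPM, IL-1βlow libraries 28.3, 29.4 and 30.7 CPM, CYT libraries 145, 202 and 243 CPM, and IL-1βlow + CYT libraries 36.5, 38.5 and 44.4 CPM. Untreated and IL-1βlow libraries overlapped, and each CYT library was above all the others. The CYT mean of 197 ± 49.2 CPM (SD, n = 3) was 6.88-fold the untreated mean of 28.6 ± 3.80 CPM (SD, n = 3), with a log2 fold change of 2.78 (SE 0.16, edgeR adjusted p = 3.6e-09).

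The IL-1βlow + CYT mean of Sstr3, 39.8 ± 4.09 CPM (SD, n = 3), was 1.39-fold the untreated mean and 4.94-fold below the CYT mean, with a log2 fold change against CYT of -2.31 (SE 0.16, edgeR adjusted p = 8.43e-08). Against IL-1βlow the log2 fold change of Sstr3 was 0.44 (SE 0.16, edgeR adjusted p = 0.0928) and against untreated cells 0.48 (SE 0.16, edgeR adjusted p = 0.0441), and neither was called. IL-1βlow alone gave 0.042 (95% interval -0.30 to 0.38, edgeR adjusted p = 0.924). The CYT response of Sstr3 differed with preconditioning by -2.35 on the log2 scale (SE 0.22, edgeR adjusted p = 5.84e-06 for the interaction).

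**Figure D1:**
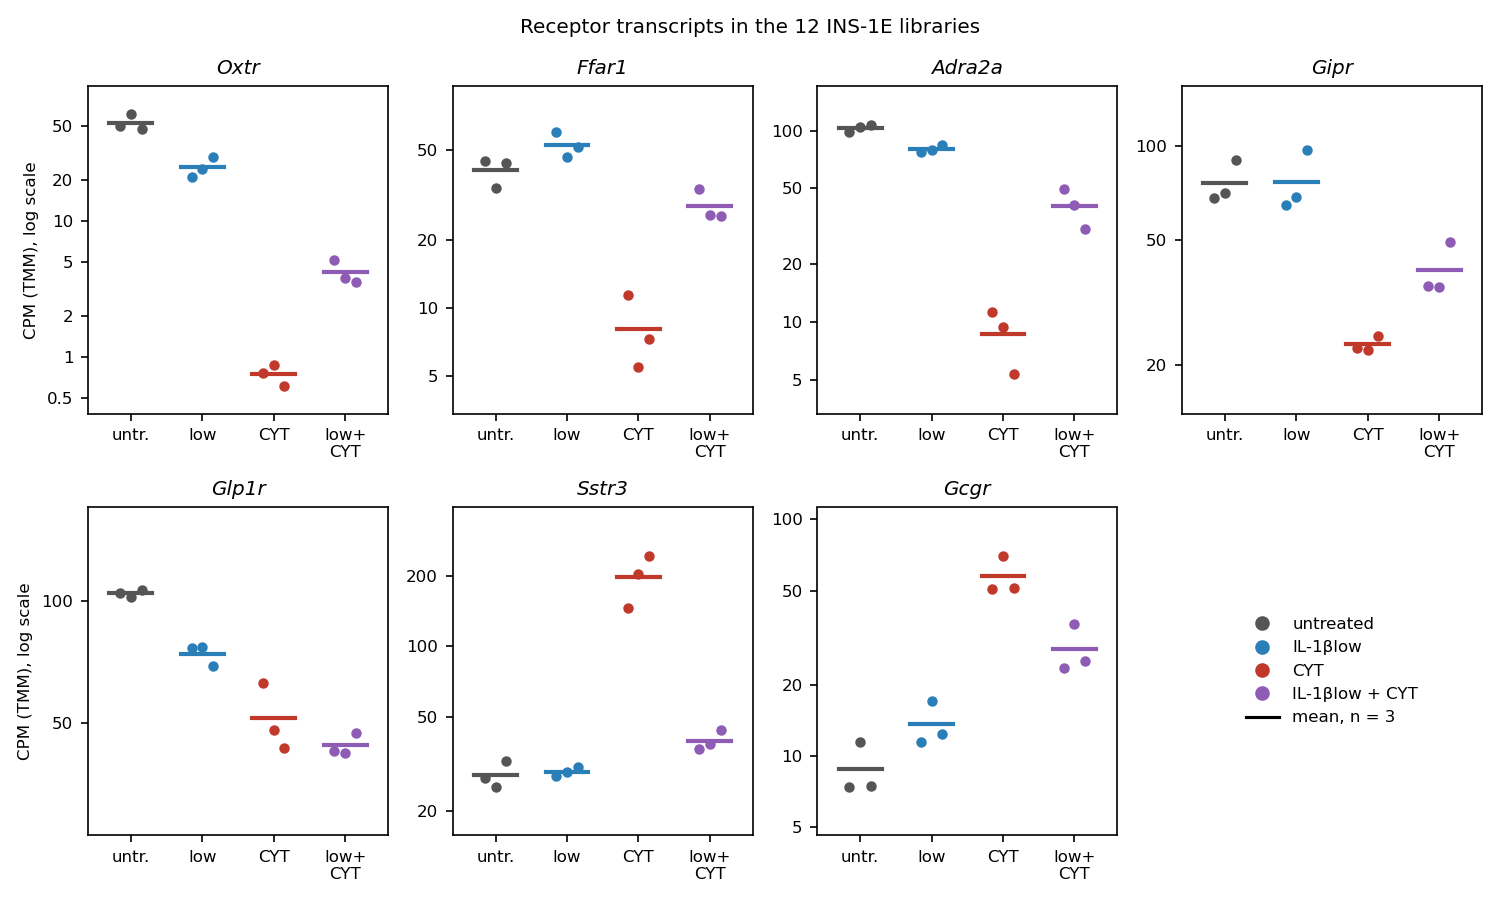
TMM-scaled CPM on a log axis for each receptor (1 panel each) in the 12 libraries, with untreated (untr.), IL-1βlow (low), CYT and IL-1βlow + CYT (low+CYT) side by side. Points are libraries and lines are means of 3. Oxtr, Ffar1, Adra2a and Gipr are lowest in CYT, Sstr3 and Gcgr are highest there, and the CYT and IL-1βlow + CYT libraries of Glp1r overlap.

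CYT replicate 1 had the highest Ffar1 (11.5 CPM), Glp1r (62.7 CPM) and Adra2a (11.3 CPM) and the lowest Sstr3 (145 CPM) of the CYT libraries. It also had the lowest Gcgr (50.6 CPM), and was thus nearest to the untreated level for these 5 receptors. For Oxtr and Gipr it lay between the other CYT libraries.

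With CYT, all 6 receptors tested were called, Gcgr and Sstr3 higher and Ffar1, Glp1r, Gipr and Adra2a lower. Over all genes 21.6% were called in this comparison, 10.0% higher and 11.6% lower. The median log2 fold change of the 6 was -1.37, beside -0.043 over all genes. The receptors were chosen with results of these data known, so these counts describe them and do not set them apart from other genes.

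In IL-1βlow + CYT against CYT, 4 of the 6 were called, Ffar1 and Adra2a higher and Gcgr and Sstr3 lower, where 12.5% of all genes were called, 6.54% higher and 5.92% lower. In IL-1βlow + CYT against IL-1βlow, 2 of the 7 receptors were called, Oxtr lower and Gcgr higher, where 3.88% of all genes were called. In IL-1βlow + CYT against untreated cells, 3 of the 6 were called, Gcgr higher and Glp1r and Adra2a lower, beside 5.99% of all genes. These comparisons share libraries with one another.

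With IL-1βlow alone, 0 of the 6 were called by edgeR's quasi-likelihood test, where 0.433% of all genes (62) were called. By exactTest and by DESeq2 0 of the 6 were called too, where 138 and 139 genes were called. Gcgr was called with no filter on low counts and with the replicate block. Under the looser rule of an adjusted p under 0.05 with no fold change minimum Glp1r was called. At an unadjusted p under 0.05 there were 2 receptors, Glp1r lower and Gcgr higher, beside 13.8% of all genes. The interaction, the CYT response in preconditioned cells minus that in unconditioned cells, was called for 4 of the 6, with Ffar1 and Adra2a positive and Gcgr and Sstr3 negative, beside 10.7% of all genes. In each of these 4 the challenge moved the transcript less in preconditioned cells, while the interactions of Gipr (0.78, SE 0.23, edgeR adjusted p = 0.0185) and Glp1r were not called.

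**Figure D2:**
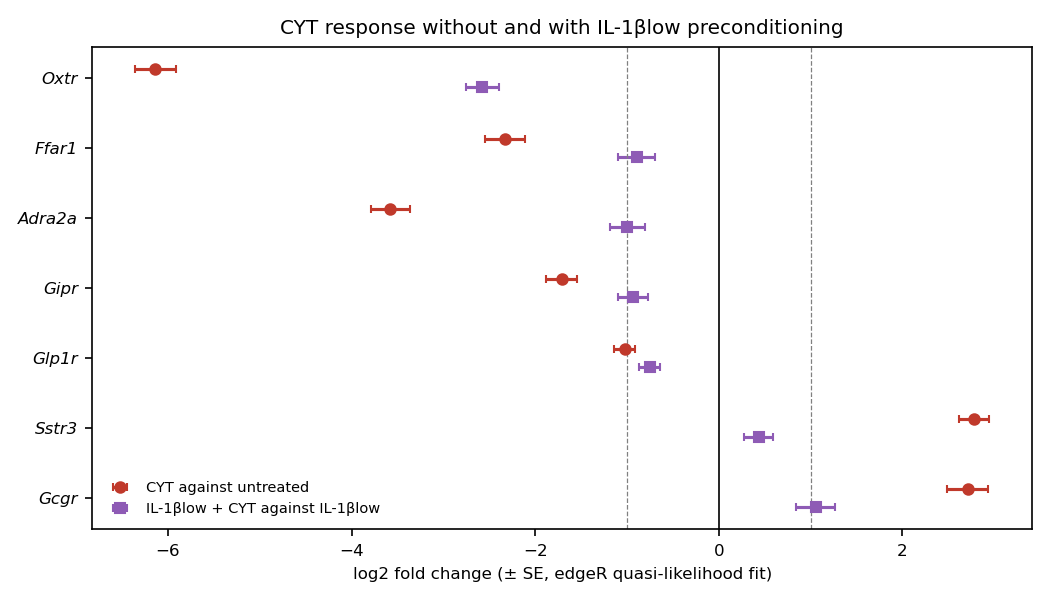
Log2 fold change with CYT (horizontal axis, ± SE) of each receptor in unconditioned cells (circles, CYT against untreated) and in preconditioned cells (squares, IL-1βlow + CYT against IL-1βlow), with dashed lines at the minimum of 1 in either direction. Each square lies nearer to 0 than its circle, from -2.57 beside -6.14 for Oxtr to -0.75 beside -1.03 for Glp1r. The differences for Gipr and Glp1r were not called. That for Oxtr, which was chosen by the value of its circle, carries no test.

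The balance between receptors with opposed directions was read within each library as a ratio of counts, relative to the mean ratio of untreated libraries, so that gene length drops out. The pairs were picked after their values were seen, and the ratios carry no test. Sstr3 to Adra2a, both Gi/o-coupled, stood at 46.4 to 165 in CYT libraries (mean 96.4 ± 61.7, SD, n = 3), at 1.32 ± 0.0166 in IL-1βlow and at 3.78 ± 1.34 in IL-1βlow + CYT libraries. Gcgr to Glp1r, both Gs-coupled, stood at 9.59 to 17.4 in CYT libraries (mean 13.7 ± 3.91, SD, n = 3), at 2.19 ± 0.430 in IL-1βlow and at 7.69 ± 2.19 in IL-1βlow + CYT libraries. The first ratio lay nearer to 1 in preconditioned challenged cells than the second.

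**Figure D3:**
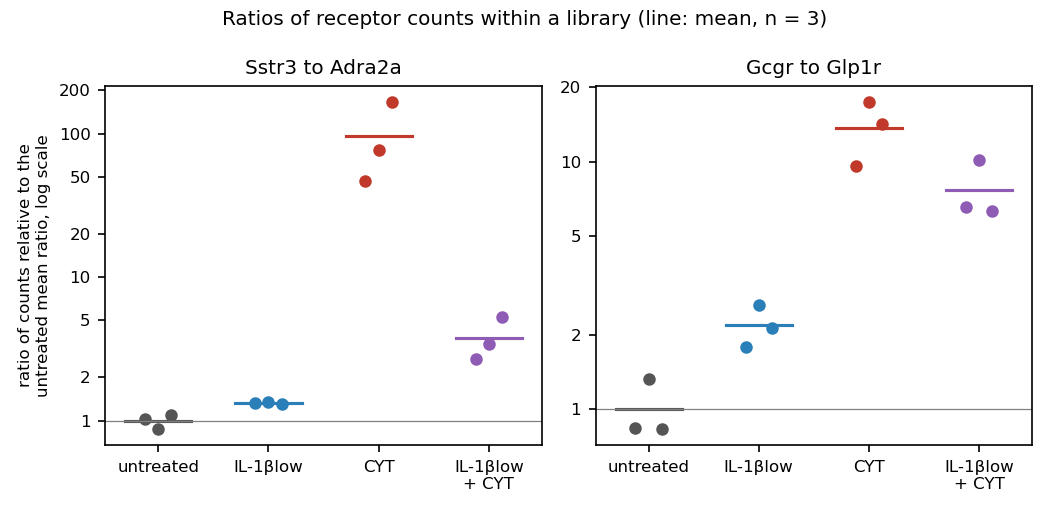
Ratio of the counts of Sstr3 to Adra2a (left) and of Gcgr to Glp1r (right) in each library, relative to the untreated mean ratio, on log axes. Points are libraries and lines are means of 3, and the grey line marks 1. CYT libraries lie between 46.4 and 165 on the left and between 9.59 and 17.4 on the right, above all IL-1βlow + CYT libraries on the left and, on the right, above a highest IL-1βlow + CYT value of 10.2 in 2 of 3 libraries.

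Of 24 further genes of the same receptor families, 13 passed the filter, and 5 rose, 7 fell and 1 was not called with CYT, with a median log2 fold change of -1.10. Over all genes 21.6% were called with CYT, 10.0% higher and 11.6% lower. The counts for the relatives follow in part from the filter, which keeps a gene through the group where it is high. Adra2b, Adra1b and Adra1d, which rose, had means above 1 CPM only in CYT cells. Adra1a and Sstr5, which fell, had means above 1 CPM only in untreated cells. Adra1a, Adra1b and Adra1d were named after their values were seen. With at least 10 counts in all libraries, 2 relatives rose and 4 fell. Adcyap1r1, the receptor for the peptide PACAP, rose furthest, from 67.1 ± 9.24 CPM in untreated to 657 ± 115 CPM in CYT cells (SD, n = 3), with a log2 fold change of 3.29 (SE 0.17, edgeR adjusted p = 8.95e-10). It rose with IL-1βlow alone as well, to 137 ± 19.6 CPM, by 1.03 on the log2 scale (SE 0.16, edgeR adjusted p = 0.00432). In IL-1βlow + CYT cells Adcyap1r1 was at 601 ± 105 CPM (SD, n = 3), and against CYT its log2 fold change was -0.13 (SE 0.15, edgeR adjusted p = 0.498).

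The short-chain fatty acid receptors Ffar2 and Ffar3 fell with CYT like Ffar1. Ffar3 went from 25.1 ± 4.17 to 3.07 ± 1.78 CPM (SD, n = 3), with a log2 fold change of -3.03 (SE 0.28, edgeR adjusted p = 3.98e-07), and stood at 16.1 ± 2.43 CPM in IL-1βlow + CYT cells, 2.38 above CYT on the log2 scale (SE 0.28, edgeR adjusted p = 9.19e-06). Ffar2, named after its values were seen, had a log2 fold change of -1.11 with CYT (SE 0.16, edgeR adjusted p = 3.14e-05) and stood at 29.8 ± 3.41 CPM in IL-1βlow + CYT cells, with a log2 fold change against CYT of 1.72 (SE 0.16, edgeR adjusted p = 9.83e-07).

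The somatostatin receptors did not move as one. Where Sstr3 rose, Sstr1 and Sstr2 fell with CYT, with log2 fold changes of -2.74 (SE 0.28, edgeR adjusted p = 1.12e-06) and -1.10 (SE 0.30, edgeR adjusted p = 0.00484), and Sstr4 had no count in any library. Sstr5, also called lower, had 22, 25 and 31 counts in untreated and 1, 0 and 4 counts in CYT libraries. Sstr1 and Sstr2 were named after their values were seen. Adra2b, a relative of Adra2a, rose from 0.355 ± 0.205 to 2.92 ± 0.356 CPM (SD, n = 3), with a log2 fold change of 3.01 (SE 0.38, edgeR adjusted p = 9.42e-06), at no more than 57 counts in any library. The vasopressin receptors Avpr1a, Avpr1b and Avpr2, the nearest relatives of Oxtr, did not pass the filter and had at most 2 counts in any library.

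**Figure D4:**
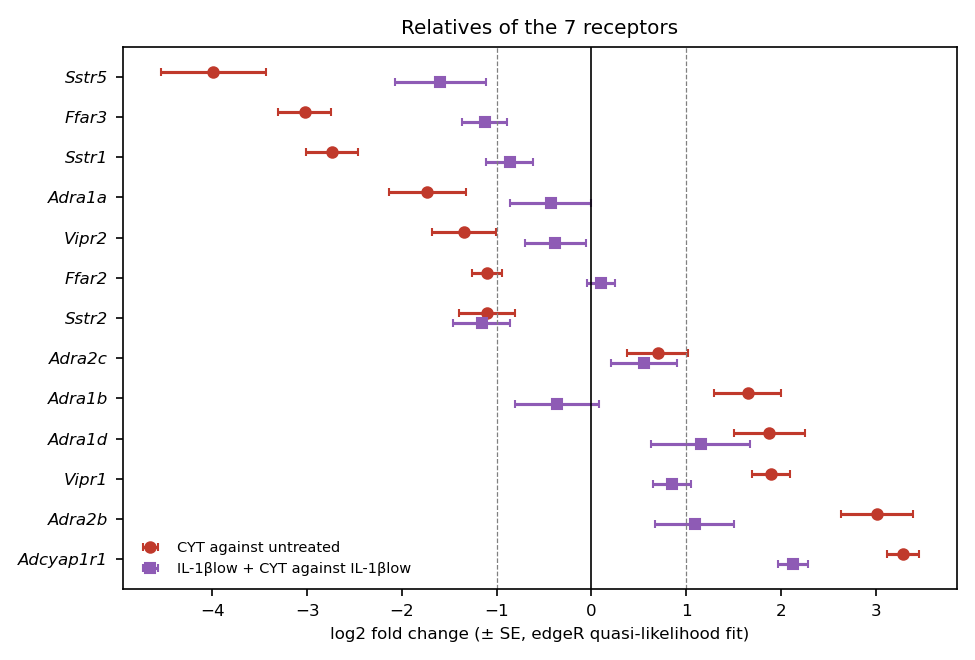
Log2 fold change with CYT (horizontal axis, ± SE) of the 13 relatives of the receptors that passed the filter, in unconditioned cells (circles, CYT against untreated) and preconditioned cells (squares, IL-1βlow + CYT against IL-1βlow). Adcyap1r1 lies furthest to the right in both (3.29 and 2.13), and Sstr5, whose fitted value rests on 1, 0 and 4 counts in CYT libraries, furthest to the left.

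Downstream of Gs, 28 genes of cAMP signalling passed the filter, and 2 rose, 10 fell and 16 were not called with CYT, with a median log2 fold change of -0.40. Over all genes 10.0% were called higher and 11.6% lower. Adcy8, a calcium-stimulated adenylyl cyclase, rose from 5.58 ± 0.330 to 32.2 ± 2.90 CPM (SD, n = 3), with a log2 fold change of 2.53 (SE 0.20, edgeR adjusted p = 8.75e-08), and Pde4c rose by 1.03 (SE 0.15, edgeR adjusted p = 3.06e-05). Crem, a cAMP-responsive transcription factor, fell from 46.4 ± 5.84 to 7.44 ± 1.93 CPM (SD, n = 3), and Pde4d, a phosphodiesterase that breaks down cAMP, from 71.2 ± 5.84 to 17.8 ± 0.746 CPM (SD, n = 3). The count of 2 that rose was 1 without untreated replicate 1 or CYT replicate 2. Against CYT, Pde4d was higher in IL-1βlow + CYT cells, at 38.7 ± 4.45 CPM (SD, n = 3, edgeR adjusted p = 7.75e-06), and Crem, at 0.68 (SE 0.22, edgeR adjusted p = 0.0191), was not called.

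Of 19 genes of Gi/o and βγ signalling, 2 rose (Kcnj3 and Gng12), 3 fell (among them Kcnj9 and Gnb4) and 14 were not called with CYT, with 1 rise without CYT replicate 2. Of 16 genes of Gq and phospholipase C signalling, 2 rose, 1 fell and 13 were not called, with 1 rise without CYT replicate 3. Both lists were called at near the 21.6% of all genes, so these counts do not set them apart from other genes. The kinase gene Prkca rose from 35.7 ± 2.07 to 90.6 ± 12.7 CPM (SD, n = 3), with a log2 fold change of 1.34 (SE 0.14, edgeR adjusted p = 1.82e-06), and was lower in IL-1βlow + CYT than in CYT cells, with -1.13 (SE 0.14, edgeR adjusted p = 1.82e-05). Gna13, which is on this list but encodes an α subunit of the G12/13 class, rose by 1.03 (SE 0.16, edgeR adjusted p = 7.21e-05). Gna14, a Gq-class α subunit with at most 29 counts in any library, fell by 2.29 on the log2 scale (SE 0.38, edgeR adjusted p = 1.19e-04). Of the 5 genes of peptide ligands for these receptors, only Gcg, which encodes glucagon, passed the filter, and it fell from 265 ± 92.6 to 37.3 ± 22.4 CPM (SD, n = 3), with a log2 fold change of -2.83 (SE 0.39, edgeR adjusted p = 2.22e-05).

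The genes whose levels over the 12 libraries, each relative to its own untreated mean, were nearest to Oxtr were Stc1, Car8, Fgl2, Iqgap2 and Mfsd2a, among 11496 genes with a mean log2 CPM above 2. Their root mean square differences from Oxtr were 1.25, 1.34, 1.43, 1.45 and 1.54 on the log2 scale. This measure takes in the size of a change, and Oxtr was chosen for a large one. The distances thus cannot tell a smaller change of the same pattern from a different pattern. Stc1 went from 569 ± 102 CPM in untreated to 311 ± 84.2 CPM in IL-1βlow, 34.9 ± 5.01 CPM in CYT and 132 ± 15.5 CPM in IL-1βlow + CYT cells (SD, n = 3). Car8 differed from Oxtr in that its IL-1βlow + CYT mean, 23.4 ± 1.70 CPM, lay beside its CYT mean of 26.2 ± 7.24 CPM (SD, n = 3).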

How the data were processed

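RNA-seq of polyadenylated RNA was measured in 12 libraries of INS-1E cells, 3 in each of 4 groups. The authors checked reads with FastQC 0.11.9, trimmed them with rfastp 1.12.0, and aligned them to mRatBN7.2 and counted them on genes with Rsubread 2.16.1 (featureCounts). The deposited table gives each gene symbol a raw whole-number count in each library. The strand setting is not given in the sources used here.

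Genes above 1 CPM in at least 2 libraries were kept (14324 of 34034 symbols). All 12 libraries entered 1 fit of edgeR's quasi-likelihood model with TMM factors and 8 residual degrees of freedom (R 4.3.3, edgeR 4.0.16, limma 3.58.1), as in the study's filter and thresholds, whose test was edgeR's exactTest. Standard errors were taken as the log2 fold change over the root of F, and p-values were adjusted by Benjamini-Hochberg over all genes kept. On simulated counts for CYT against untreated (13877 genes), 180 of 195 genes changed by 1.5 on the log2 scale and 0 unchanged genes were called.

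The members and gene lists were chosen with earlier results of these data known. The text names all 7 receptors, up to 2 genes of each list with the largest rise and 2 with the largest fall among those called with CYT, and the 5 genes nearest to Oxtr. Others are said to be named after their values were seen. The lists were relatives of the receptors, other islet receptors, Gs and cAMP, Gi/o and βγ, and Gq and phospholipase C signalling, receptor desensitization, peptide ligands, and 7 marker lists. Overlapping genes and upstream windows came from the RefSeq tables of GRCr8.

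The labels call the libraries of a group biological replicates and do not say how they were grown. The p-values set a group difference against the spread within groups, estimated over all 12 libraries and moderated across genes. They reach no further than these libraries, and an exact permutation test of 3 against 3 cannot go below p = 0.1. Within each group the counts of libraries were 7.09 to 27.2 times as dispersed as sampling noise (chi-square over its degrees of freedom), and each library counted as 1 replicate. Reads have no molecular identifiers, so depth (15812640 to 20246806 counts per library) bounds counting error only. Same-numbered libraries of the treated groups had correlated deviations from their group means, each r over 0.1. This held for IL-1βlow with IL-1βlow + CYT (0.179, 0.469 and 0.520), CYT with IL-1βlow + CYT (0.116, 0.475 and 0.453) and IL-1βlow with CYT (0.131, 0.446 and 0.411). It is a hint of pairing. The labels number the replicates in every group, and the library names run in order of that number, but no label states a pairing. Pairings of untreated libraries with IL-1βlow, CYT and IL-1βlow + CYT libraries were mixed. They were 0.12, 0.095 and -0.016 for replicate 1, and 0.17, 0.18 and 0.16 for replicate 2. For replicate 3 they were -0.19, -0.12 and -0.17. All values come from the fit without a block unless the replicate block is named.

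Alternatives were RLE size factors, DESeq2 1.42.0, exactTest, glmTreat, no filter, a filter of 10 counts in all libraries, the replicate block, a fit of the 2 groups alone, a looser rule (adjusted p under 0.05 with no fold change minimum), and leaving out each library.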

Additional observations from a re-analysis of the deposited data

Results flagged for a closer look

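The CYT response of 4 receptors differed between cells with and without IL-1βlow preconditioning, by the interaction test of edgeR's quasi-likelihood model. The interaction was 1.435 on the log2 scale for Ffar1, -1.66 for Gcgr, 2.58 for Adra2a and -2.35 for Sstr3, each with the same sign when any 1 library was left out. Groups of 3 libraries were not examined for outlying samples.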

How the results depend on the processing

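Over the 21 alternatives, 714 of 765 log2 fold changes of the receptors, with Oxtr counted only where it was tested, kept their direction and their side of the threshold, 21 lost a call, 25 gained one and 5 changed sign. The sign changes were near 0, in IL-1βlow against untreated cells: Gipr was -0.00174 with the replicate block and -0.196 to 0.143 with each library left out, and Sstr3 -0.0403 to 0.151. With the replicate block, Gcgr was called in IL-1βlow against untreated cells (0.64, edgeR adjusted p = 0.00133), which made 1 receptor in place of 0 and 141 genes in place of 62. Apart from that and Adra2a in IL-1βlow + CYT against IL-1βlow, the block changed no other receptor call. With no filter, or an adjusted p under 0.05 with no fold change minimum, 1 receptor was also called with IL-1βlow. For IL-1βlow + CYT against IL-1βlow the count of 2 receptors became 6 with the looser rule, 1 with glmTreat, 1 with only the 2 groups compared, and 1 to 4 with each library left out, lowest without IL-1βlow replicate 3 and highest without IL-1βlow replicate 2 or IL-1βlow + CYT replicate 1. For IL-1βlow + CYT against untreated cells, 3 became 5 with the looser rule and 0 with glmTreat, and for the interaction 4 became 2 with glmTreat. The cause of these shifts was not tested beyond the construction of each rule. The Glp1r call with CYT was also lost with RLE size factors, DESeq2, no filter and only the 2 groups compared, at -0.957 to -0.996. The interaction was not run with exactTest or with only the 2 groups compared.

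Over all genes, calls for IL-1βlow against untreated cells ran from 10 (glmTreat) to 229 (no filter), with 138 by exactTest, 139 by DESeq2, 193 by the looser rule and 16 to 87 with each library left out. The looser rule and glmTreat gave 8926 and 1404 genes for CYT against untreated cells, 7267 and 457 for IL-1βlow + CYT against CYT, 1855 and 229 for IL-1βlow + CYT against IL-1βlow, 3124 and 353 for IL-1βlow + CYT against untreated cells, and 5337 and 182 for the interaction. With at least 10 counts in all libraries, which tests fewer genes, 2 relatives of the receptors rose and 4 fell with CYT, 4 other islet receptors fell and 0 Gq genes fell. With glmTreat 3 relatives rose and 3 fell, 2 other islet receptors rose and 5 fell, 1 cAMP gene rose and 5 fell, 1 desensitization gene rose and 1 fell, and 0 Gi/o genes were called and 0 Gq genes rose. With the looser rule 13 other islet receptors rose, 6 cAMP genes rose, 5 Gi/o genes rose and 8 fell, 6 Gq genes fell, and 8 desensitization genes rose and 6 fell. Oxtr in CYT rests on 12 to 15 counts per library.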

Other observations

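Among 31 other receptors of islet cells that passed the filter, 5 rose, 8 fell and 18 were not called with CYT, their median log2 fold change being 0.011. Over all genes 21.6% were called. Without untreated replicate 3, 3 rose. Drd2, a Gi/o-coupled dopamine receptor, rose from 3.93 ± 0.523 to 31.3 ± 4.80 CPM (SD, n = 3), with a log2 fold change of 2.99 (SE 0.19, edgeR adjusted p = 1.05e-08), and stood at 9.04 ± 2.37 CPM in IL-1βlow + CYT cells, at a log2 fold change against CYT of -1.79 (SE 0.18, edgeR adjusted p = 2.2e-06). S1pr2, a sphingosine 1-phosphate receptor, rose by 1.76 (SE 0.15, edgeR adjusted p = 1.4e-07). Mtnr1a, a melatonin receptor, fell from 10.6 ± 2.05 to 1.48 ± 0.899 CPM (SD, n = 3) and stood at 7.76 ± 0.817 CPM in IL-1βlow + CYT cells, with a log2 fold change against CYT of 2.39 (SE 0.30, edgeR adjusted p = 1.65e-05). Gpr119, a lipid receptor coupled to Gs, was called lower on 14, 5 and 9 counts in untreated and 0, 0 and 3 counts in CYT libraries.

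Among 19 genes of receptor desensitization, which holds arrestins, receptor kinases and the RGS proteins that switch G proteins off, 3 rose, 3 fell and 13 were not called with CYT, with 1 fall without replicate 3 of untreated, replicate 1 of untreated, CYT replicate 2 or CYT replicate 3. Over all genes 21.6% were called, so these counts do not set the list apart from other genes. Rgs9 rose from 72.3 ± 6.79 to 241 ± 8.62 CPM (SD, n = 3), with a log2 fold change of 1.74 (SE 0.09, edgeR adjusted p = 6.16e-10), and Rgs7 rose by 1.39 (SE 0.15, edgeR adjusted p = 2.45e-06). Rgs16 fell from 123 ± 5.74 to 24.0 ± 1.79 CPM (SD, n = 3), with a log2 fold change of -2.36 (SE 0.11, edgeR adjusted p = 2.98e-10), and was higher in IL-1βlow + CYT cells, at 67.8 ± 9.50 CPM, than in CYT cells (edgeR adjusted p = 1.08e-07). Rgs14 fell on at most 29 counts in any library, with a log2 fold change of -1.31 (SE 0.35, edgeR adjusted p = 0.00458).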
